A study of Mus musculus with 6 samples.

Results

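The genes described here are Ctse, Snrpe, Shisa4, Lgr6, Gpr37l1, Lypd1, Phlda3, Tmem163, Mcm6 and Cdk18, which lie within 10 Mb of Adora1 on mouse chromosome 1. Adora1 encodes the adenosine A1 receptor and is the gene deleted in one of the groups compared. The 10 genes are among 146 measured in that window and 19752 measured in all, and each is named alone by 1 probe set of the array. They were chosen because their levels differed most between the groups on these same arrays, so every difference between the groups given for them is a description and carries no test.

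RNA came from aortas of mice aged 20 weeks, with C57BL/6 given as the strain of all of them. The controls, called ApoE-KO, carry the genotype apoe-/- (3 arrays), and the double knockouts, called DKO, carry apoe-/- adora1-/- (3 arrays), so every mouse lacks Apoe, whose loss raises plasma cholesterol and leads to atherosclerosis. The series text names the comparison group as lacking Adora1, while every sample label of that group names Apoe, and the labels were followed. The arrays of each group are numbered 1 to 3, and all values below are log2 intensities as the authors deposited them, on which a difference of 1 is a doubling.

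Array medians lay between 8.01 and 8.02. Smooth muscle markers, which define the aortic wall, averaged 12.98 to 13.15 on every array. The arrays numbered 3 stood apart in lung epithelium markers, whose mean over 5 genes was 10.77 on the ApoE-KO array and 10.17 on the DKO array, while the other 4 arrays gave 6.64 to 6.76. Without that pair of arrays the differences of the 10 genes kept their signs, as those of groups without overlap must, and ran from -1.33 for Mcm6 to 0.82 for Snrpe. Over all 25254 probe sets, limma with Benjamini-Hochberg adjustment called 0 at an adjusted p under 0.05, with 1419 (5.62%) at an unadjusted p under 0.05. It called 44 when arrays with the same number were treated as a pair, which is 0.174% of the probe sets. Without the arrays numbered 2 the paired fit called 0, and without those numbered 1 it called 415.

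Adipocyte markers were lower in DKO in 4 of 5 genes, with a mean of 9.26 to 10.02 on the ApoE-KO arrays and 8.68 to 9.52 on the DKO arrays. With pairing, 2 of the 5 passed limma at an adjusted p under 0.05, the resistin gene Retn (-1.53, adjusted p = 0.0226) and the lipid droplet gene Cidec (-0.74, adjusted p = 0.0467), against 0.0792% of all probe sets in that direction. Both calls were lost without the arrays numbered 2. Their part in the lower levels of Mcm6, Gpr37l1, Phlda3, Cdk18 and Tmem163 was not tested.

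The 10 genes share a stretch of chromosome, not a pathway. Snrpe encodes a core protein of the spliceosome, and Mcm6 a subunit of the ring-shaped helicase that unwinds DNA for replication. Ctse encodes cathepsin E, an aspartic protease of endosomes. Lgr6 is a receptor for R-spondins, which strengthen Wnt signalling, and Gpr37l1 is a G protein-coupled receptor found mostly in glia. Lypd1 is a membrane-anchored protein of the Ly6 family that dampens nicotinic acetylcholine receptors, Shisa4 is a transmembrane protein of the Shisa family, and Tmem163 is a zinc transporter of intracellular vesicles. Phlda3 is a target of p53 that competes with the kinase Akt for membrane lipids, and Cdk18 is a kinase of the PCTAIRE group of cyclin-dependent kinases. When a gene is deleted in embryonic stem cells of one strain and bred into another, DNA of the first strain can remain around the deleted gene. Whether such DNA lies near Adora1 in these mice, and its part in the values below, was not tested.

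Promoter letters were matched for 9 of the 10 genes in RefSeq's GRCm38.p6 table, whose sequence is that of C57BL/6J; Ctse had no entry. The 250 bases before the start site are shown for the genes with the largest differences in each direction among those with 1 entry, Snrpe and Shisa4 on the higher side and Mcm6 and Gpr37l1 on the lower side. Capitals mark motif matches on either strand: the E2F motif TTTNNCGC, the CCAAT box CCAAT, the GC box GGGCGG, the TATA box TATAAA and the E-box CACGTG.
Snrpe, chr1:133610281-133610530, minus strand: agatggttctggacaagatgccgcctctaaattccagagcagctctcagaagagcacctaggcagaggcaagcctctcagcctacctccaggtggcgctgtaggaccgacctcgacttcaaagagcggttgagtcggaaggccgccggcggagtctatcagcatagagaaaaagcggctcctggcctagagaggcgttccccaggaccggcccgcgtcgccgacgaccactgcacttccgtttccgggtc
Shisa4, chr1:135375064-135375313, minus strand: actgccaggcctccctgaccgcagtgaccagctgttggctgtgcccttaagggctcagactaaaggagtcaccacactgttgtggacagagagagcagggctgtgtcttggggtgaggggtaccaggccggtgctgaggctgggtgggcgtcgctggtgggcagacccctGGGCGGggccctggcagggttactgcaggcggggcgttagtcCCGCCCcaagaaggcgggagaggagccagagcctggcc
Mcm6, chr1:128359706-128359955, minus strand: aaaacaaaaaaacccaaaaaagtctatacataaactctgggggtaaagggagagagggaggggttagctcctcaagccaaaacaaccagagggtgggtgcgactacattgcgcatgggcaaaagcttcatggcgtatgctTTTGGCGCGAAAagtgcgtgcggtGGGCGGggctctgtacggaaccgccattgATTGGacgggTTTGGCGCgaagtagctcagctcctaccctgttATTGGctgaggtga
Gpr37l1, chr1:135167682-135167931, minus strand: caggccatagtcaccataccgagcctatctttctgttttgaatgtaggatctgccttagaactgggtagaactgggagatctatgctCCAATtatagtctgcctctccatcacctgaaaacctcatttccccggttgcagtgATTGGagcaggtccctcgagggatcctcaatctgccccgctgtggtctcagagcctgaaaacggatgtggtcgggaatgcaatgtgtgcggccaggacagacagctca

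Mcm6 held 3 E2F matches, of which 2 overlap each other, beside 2 CCAAT boxes and 1 GC box. Shisa4 held 2 GC boxes, Gpr37l1 held 2 CCAAT boxes, and none of these motifs was found in the Snrpe window. Over 32851 promoter entries of the same length, 4.28% held the E2F motif, 33.8% the CCAAT box, 32.7% the GC box, 12.4% the TATA box and 6.02% the E-box. Of the other subunits of the helicase ring, Mcm5 had 2 E2F matches, Mcm7 had 1 in its richer entry, and Mcm2 and Mcm3 had 0, while Mcm4 was not matched in the table. A match describes letters and not a used site.

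In 5 of the 10 genes every DKO array read higher than every ApoE-KO array (Ctse, Snrpe, Lypd1, Shisa4 and Lgr6), and in the other 5 every DKO array read lower (Mcm6, Gpr37l1, Phlda3, Cdk18 and Tmem163). Such a separation of the groups was present in 12.0% of the whole array, with 5.55% higher and 6.47% lower in DKO. Since the genes were chosen for their differences nothing follows from their count. All 30 differences between arrays of the same number had the sign of their gene's mean difference, which follows from the groups standing apart. With that pairing, Ctse and Snrpe were among the 44 probe sets called (0 without the arrays numbered 2), and nothing is read from this because the same contrast chose them.

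**Figure D1:**
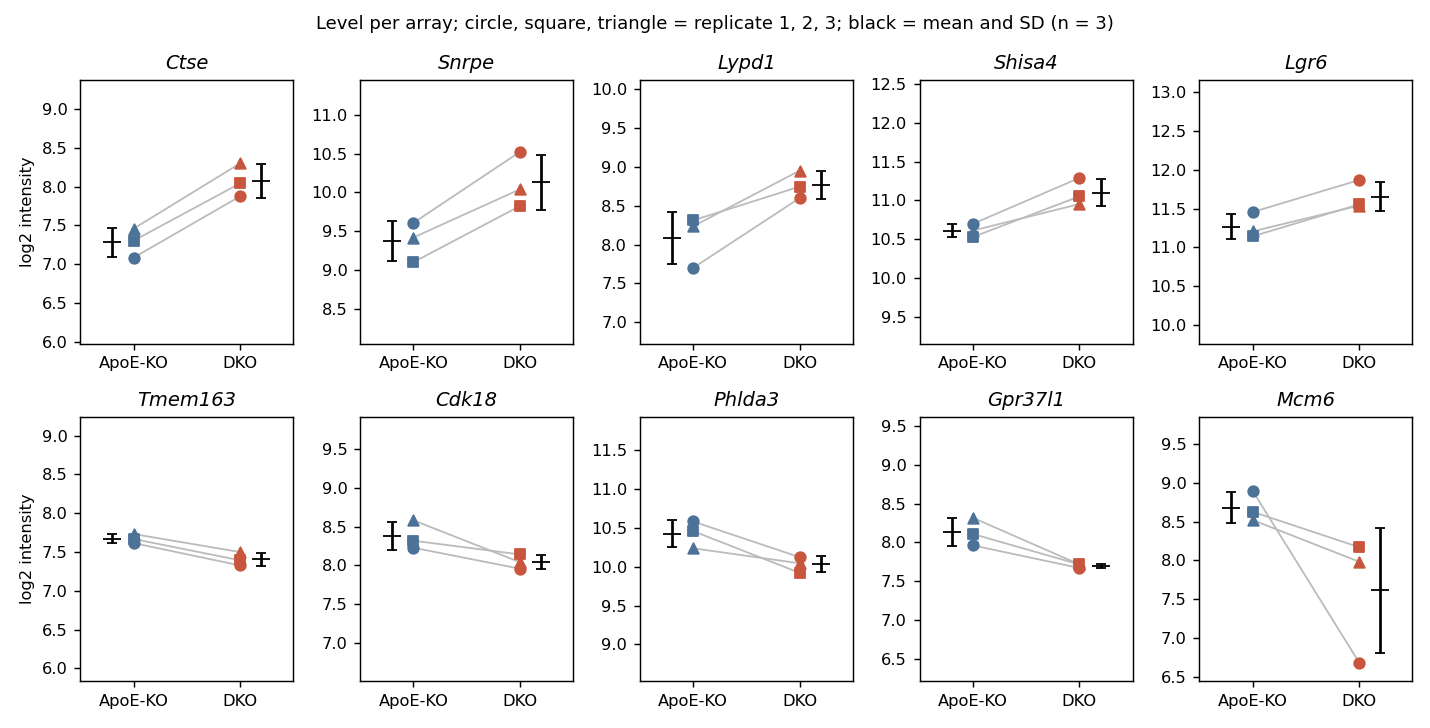
Log2 intensity of the 10 genes on each of the 6 arrays, with a line joining arrays of the same replicate number and black bars for the group mean and SD (n = 3 per group). Every vertical axis spans the same log2 range; the groups do not overlap in any panel, and the circle of DKO replicate 1 stands far below the others for Mcm6.

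Snrpe, the spliceosomal core gene (probe set 10357808), read 9.61, 9.10 and 9.42 on the ApoE-KO arrays 1 to 3 and 10.52, 9.83 and 10.04 on the DKO arrays. The DKO arrays were all above the ApoE-KO arrays, and the closest values of the groups lay 0.22 apart. The means of 9.38 ± 0.26 and 10.13 ± 0.36 (SD, n = 3 each) differed by 0.75, or 1.69-fold. The arrays numbered 1 were the highest of their group, and the arrays numbered 2 the lowest. By replicate number the differences were 0.92, 0.72 and 0.62.

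Partners of Snrpe in spliceosome assembly lie outside the window. Of 31 measured Sm, LSm and SMN complex genes, 24 were above 0 and 7 below (21 and 10 after renewed quantile normalization), with a median difference of 0.07 beside 0.00 over all genes. None passed limma at an adjusted p under 0.05 with or without pairing. At an unadjusted p under 0.05, 1 was higher without pairing, and 9 were higher and 0 lower with it. Over all probe sets those shares are 2.94%, 10.1% and 6.10%. The largest differences were those of Lsm6 (0.47), Lsm3 (0.42) and Gemin6 (0.34), which encode parts of the LSm ring and of the SMN complex that loads Sm proteins onto RNA. Each was smaller than that of Snrpe, and in none of the 3 were the groups apart.

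Mcm6 (probe set 10357436) had the largest difference of the 146 window genes. It gave 8.90, 8.63 and 8.52 on the ApoE-KO arrays, against 6.68, 8.17 and 7.98 on the DKO arrays. All DKO arrays were lower, but DKO replicate 1 was set far apart from the rest. The means were 8.68 ± 0.19 and 7.61 ± 0.81 (SD, n = 3 each), a difference of -1.07 that moved to -0.60 without DKO replicate 1 and to -0.50 without both arrays numbered 1. By replicate number the differences were -2.21, -0.46 and -0.54. Counting Mcm6, 12 of 25254 probe sets differed by as much in either direction between the arrays numbered 1, 820 between those numbered 2 and 484 between those numbered 3.

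The other subunits of the helicase did not share this pattern in their values. Mcm6 works in a ring with the products of Mcm2, Mcm3, Mcm4, Mcm5 and Mcm7, and the differences of these 5 genes ran from -0.05 for Mcm2 to 0.14 for Mcm7. In each of the 5 the groups overlapped. Between the arrays numbered 1, where Mcm6 stood at -2.21, the other 5 stood between 0.02 and 0.27.

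**Figure D2:**
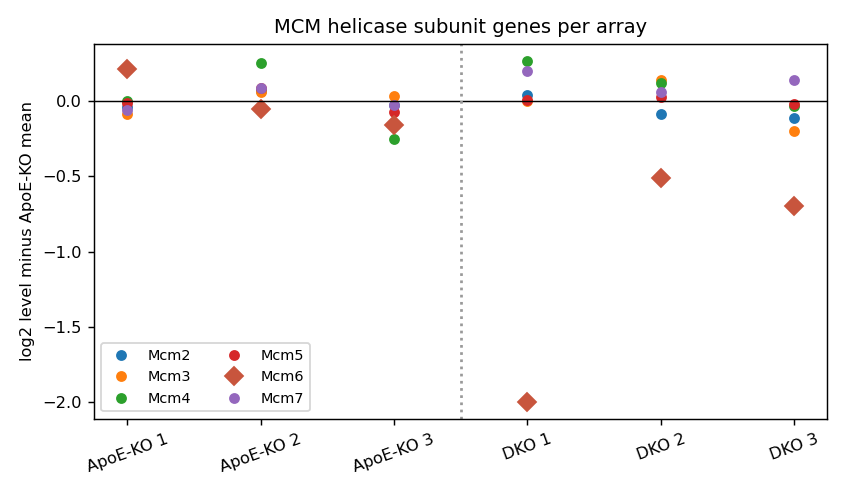
Log2 level of each MCM2 to MCM7 subunit gene minus its ApoE-KO mean, for each of the 6 arrays. Mcm6 (diamonds) lies below the other subunits on all DKO arrays and lowest on DKO replicate 1, while the other 5 genes lie nearer to 0 on the DKO arrays.

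Of 29 measured licensing and replication fork genes, 18 were above 0 and 11 below (22 and 7 after renewed quantile normalization), with a median of 0.03. Neither limma fit called any at an adjusted p under 0.05. At an unadjusted p under 0.05, 3 were higher and 0 lower without pairing (2.94% and 2.68% of all probe sets). With pairing these were 6 and 0 (10.1% and 6.10%). The largest differences belonged to Orc6 (0.28) and Orc5 (0.22), subunits of the origin recognition complex, and to Mcm8 (0.21), a helicase of DNA repair. Of 4 proliferation markers 3 were above 0 and 1 below, with Mki67 at 0.06 and Top2a at -0.01, and their mean was 6.63 to 6.91 in ApoE-KO and 6.74 to 6.96 in DKO.

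Macrophage markers were low on the array where Mcm6 was lowest. Their mean over 6 genes was 9.35 on DKO replicate 1 against 9.92 to 10.42 on the other 5 arrays, while 3 of the 6 genes were above 0 and 3 below between the groups (1 and 5 after renewed quantile normalization). The part of this in the Mcm6 value was not tested. In RNA from whole tissue, fewer cells of a type and less RNA per cell cannot be told apart.

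Ctse (probe set 10349648) gave 7.08, 7.30 and 7.46 on the ApoE-KO arrays 1 to 3, against 7.87, 8.04 and 8.30 on the DKO arrays. The groups were 0.42 apart at their closest, wider than for any of the other 9 genes. The means of 7.28 ± 0.19 and 8.07 ± 0.21 (SD, n = 3 each) differed by 0.79, or 1.73-fold. The differences by replicate number were 0.79, 0.74 and 0.84, with an SD of 0.05, while the spread expected of unmatched arrays, from the SDs of both groups together, was 0.28.

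The other cathepsins and lysosomal proteases stayed nearer to 0. Of 20 measured genes 16 were above 0 and 4 below, with a median of 0.10 (0.06 after renewed quantile normalization). With and without pairing, limma called 0 of them at an adjusted p. At an unadjusted p under 0.05, 2 were higher without pairing and 5 with it, and 0 were lower. Of all probe sets, 2.94% were higher and 2.68% lower without pairing, and 10.1% and 6.10% with it. Ppt1, a lysosomal thioesterase, stood at 0.33 and Ctsf, a cysteine cathepsin, at 0.26, with no overlap between groups in either. Ctss, the cysteine cathepsin of antigen-presenting cells, stood at -0.29 with pairs at -1.41, 0.37 and 0.16.

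Lypd1 (probe set 10357339) gave 7.70, 8.31 and 8.23 on the ApoE-KO arrays 1 to 3, against 8.60, 8.75 and 8.95 on the DKO arrays. The lowest DKO array was 0.29 above the highest ApoE-KO array. The means of 8.08 ± 0.33 and 8.77 ± 0.18 (SD, n = 3 each) differed by 0.68, or 1.61-fold, and the differences by replicate number were 0.90, 0.44 and 0.72. Of 24 measured Ly6 family and nicotinic receptor genes, 10 were above 0 and 14 below, which turned to 15 and 9 after renewed quantile normalization. None passed at an adjusted p in either limma fit. At an unadjusted p under 0.05, 2 were higher and 0 lower without pairing (2.94% and 2.68% of all probe sets). With pairing these were 3 and 3 (10.1% and 6.10%). The receptor subunit genes Chrna3 and Chrnb4 stood at -0.62 and -0.47. Chrna3 had overlapping groups and pairs at -0.05, -0.39 and -1.43, with ApoE-KO replicate 3 set apart at 7.80. Chrnb4 had pairs at -0.40, -0.11 and -0.89 without overlap. Cd59a, an inhibitor of the complement membrane attack complex, stood at 0.45 (adjusted p = 0.0517 with pairing, limma).

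Mesothelium markers were higher in DKO beside Ctse and Lypd1. All 6 measured markers were higher in DKO, 5 of them without overlap between the groups, and their mean was 7.22 to 7.59 on the ApoE-KO arrays and 7.83 to 8.28 on the DKO arrays. With pairing, 2 of the 6 passed limma at an adjusted p under 0.05, the mesothelial genes Upk1b (1.19, adjusted p = 0.0313) and Lrrn4 (0.80, adjusted p = 0.0467), against 0.0950% of all probe sets in that direction. Leaving out the arrays numbered 2 ended both calls. Among genes outside the window, the profile most like that of each of these genes over the 6 arrays was that of Muc16, a mucin of mesothelium and other epithelia. Its root-mean-square distance after centring was 0.10 to Ctse and 0.08 to Lypd1, whose own profiles had root-mean-square sizes of 0.43 and 0.41. Muc16 is not one of the 6 markers and was picked by this likeness. In each of the 6 markers the difference by replicate number was largest between the arrays numbered 2 (1.49 for Upk1b, 1.03 for Lrrn4). Between those arrays Ctse and Lypd1 had their smallest differences, 0.74 and 0.44. The part of mesothelial RNA in the levels of Ctse and Lypd1 was not tested.

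Lgr6 (probe set 10357965) gave 11.45, 11.14 and 11.20 on the ApoE-KO arrays 1 to 3, against 11.87, 11.55 and 11.54 on the DKO arrays. The groups were apart by only 0.08, between ApoE-KO replicate 1 and DKO replicate 3. The means of 11.27 ± 0.17 and 11.65 ± 0.19 (SD, n = 3 each) differed by 0.39, or 1.31-fold. The differences by replicate number, 0.41, 0.41 and 0.33, had an SD of 0.05, against 0.25 for unmatched arrays. Of 17 measured R-spondin receptor and Wnt surface genes 9 were above 0 and 8 below, with a median of 0.01 that turned to -0.01 after renewed quantile normalization. Neither limma fit called any at an adjusted p under 0.05. At an unadjusted p under 0.05, 0 passed without pairing (5.62% of all probe sets) and 1 was higher with it (10.1%). The largest differences were -0.18 for the Wnt receptor gene Fzd4, 0.17 for the ligand gene Rspo3 and 0.17 for the Wnt receptor gene Fzd7.

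Gpr37l1 (probe set 10358023) gave 7.96, 8.11 and 8.32 on the ApoE-KO arrays 1 to 3, against 7.67, 7.72 and 7.72 on the DKO arrays. The DKO arrays lay close together and all below the ApoE-KO arrays. The means of 8.13 ± 0.18 and 7.70 ± 0.03 (SD, n = 3 each) differed by -0.43, and the differences by replicate number were -0.29, -0.39 and -0.60. Of 13 measured genes of peripheral glia and the related receptor, 4 were above 0 and 9 below, with a median of -0.05. With and without pairing, limma called 0 of them at an adjusted p. At an unadjusted p under 0.05, 1 was higher without pairing (2.94% of all probe sets). With pairing 2 were higher and 2 lower (10.1% and 6.10%). The glial cadherin gene Cdh19 stood at -0.54, Fabp7, a fatty acid binding protein of glia, at -0.49, and Egr2, a transcription factor of myelination, at 0.38. The 5 measured Schwann cell and satellite glia markers averaged 7.63 to 8.28 in ApoE-KO and 7.56 to 7.90 in DKO. The 5 neuron markers averaged 7.19, 7.08 and 8.04 on the ApoE-KO arrays 1 to 3, and 6.95, 6.98 and 7.21 on the DKO arrays. ApoE-KO replicate 3 stood apart in Th (9.26) and Dbh (8.37). Of the 5 markers 4 were below 0, and Uchl1 was higher in DKO (0.25) without overlap between the groups. The part of nerve RNA in the Gpr37l1 level was not tested.

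Shisa4 (probe set 10358057) gave 10.70, 10.53 and 10.61 on the ApoE-KO arrays 1 to 3, against 11.29, 11.05 and 10.95 on the DKO arrays. All DKO arrays were higher, by at least 0.26. The means of 10.61 ± 0.08 and 11.10 ± 0.17 (SD, n = 3 each) differed by 0.49, or 1.40-fold, and the differences by replicate number were 0.59, 0.52 and 0.34. The family was otherwise on the other side of 0. All 8 other measured Shisa family genes were below 0, or 7 of 8 after renewed quantile normalization or median centring, with a median of -0.13. None passed at an adjusted p in either limma fit, and at an unadjusted p under 0.05, 2 were lower without pairing and 4 with it, and 0 were higher. Over all probe sets the shares lower are 2.68% and 6.10%. Shisa3 stood at -0.45, Shisa6 at -0.34 and Shisa9 at -0.26, each without overlap between the groups.

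The measured gene just before Shisa4 on the chromosome is Lmod1, which nucleates actin filaments in smooth muscle. It stood at 0.26 with overlapping groups (adjusted p = 0.122 with pairing, limma). The 6 smooth muscle markers averaged 12.98 to 13.12 in ApoE-KO and 13.06 to 13.15 in DKO, and none of them had groups without overlap.

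Tmem163 (probe set 10357371) had the smallest difference of the 10. It gave 7.62, 7.67 and 7.73 on the ApoE-KO arrays, against 7.33, 7.39 and 7.50 on the DKO arrays, with the groups 0.12 apart. The means of 7.67 ± 0.06 and 7.41 ± 0.09 (SD, n = 3 each) differed by -0.27, and the differences by replicate number, -0.29, -0.28 and -0.23, had an SD of 0.03. Of 27 measured zinc transporter and metallothionein genes, 9 were above 0 and 18 below, with a median of -0.02. Neither limma fit called any at an adjusted p under 0.05. At an unadjusted p under 0.05, 1 was lower without pairing (2.68% of all probe sets). With pairing 1 was higher and 3 lower (10.1% and 6.10%). The zinc exporter gene Slc30a4 stood at 0.30, the zinc importer gene Slc39a13 at -0.28 and the metallothionein gene Mt3 at -0.22.

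Phlda3 (probe set 10350146) gave 10.58, 10.46 and 10.24 on the ApoE-KO arrays 1 to 3, against 10.12, 9.92 and 10.05 on the DKO arrays. All DKO arrays were lower, the closest by 0.12. The means of 10.43 ± 0.17 and 10.03 ± 0.10 (SD, n = 3 each) differed by -0.40, and the differences by replicate number were -0.46, -0.54 and -0.19. Of 22 measured p53 targets and Phlda relatives, 10 were above 0 and 12 below (11 and 11 after renewed quantile normalization). With and without pairing, limma called 0 of them at an adjusted p. At an unadjusted p under 0.05, 2 were higher and 0 lower without pairing (2.94% and 2.68% of all probe sets). With pairing these were 4 and 2 (10.1% and 6.10%). The kinase gene Plk2 stood at -0.40, the desmosomal p53 target Perp at 0.36 and Phlda1 at -0.32, with overlapping groups in all 3.

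Cdk18 (probe set 10357676) gave 8.23, 8.32 and 8.58 on the ApoE-KO arrays 1 to 3, against 7.96, 8.14 and 8.04 on the DKO arrays. The groups were 0.09 apart, the second narrowest gap after Lgr6. The means of 8.38 ± 0.18 and 8.05 ± 0.09 (SD, n = 3 each) differed by -0.33, and the differences by replicate number were -0.27, -0.18 and -0.54. Of 9 measured relatives, which are PCTAIRE kinases, Cdk5 and their cyclins or activators, 3 were above 0 and 6 below (2 and 7 after renewed quantile normalization), with a median of -0.11. None passed at an adjusted p in either limma fit. At an unadjusted p under 0.05, 0 passed without pairing (5.62% of all probe sets) and 2 were lower with it (6.10%). The largest were -0.21 for Cdk16, -0.18 for Cdk14 and -0.15 for Cdk5r1, the activator of Cdk5.

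**Figure D3:**
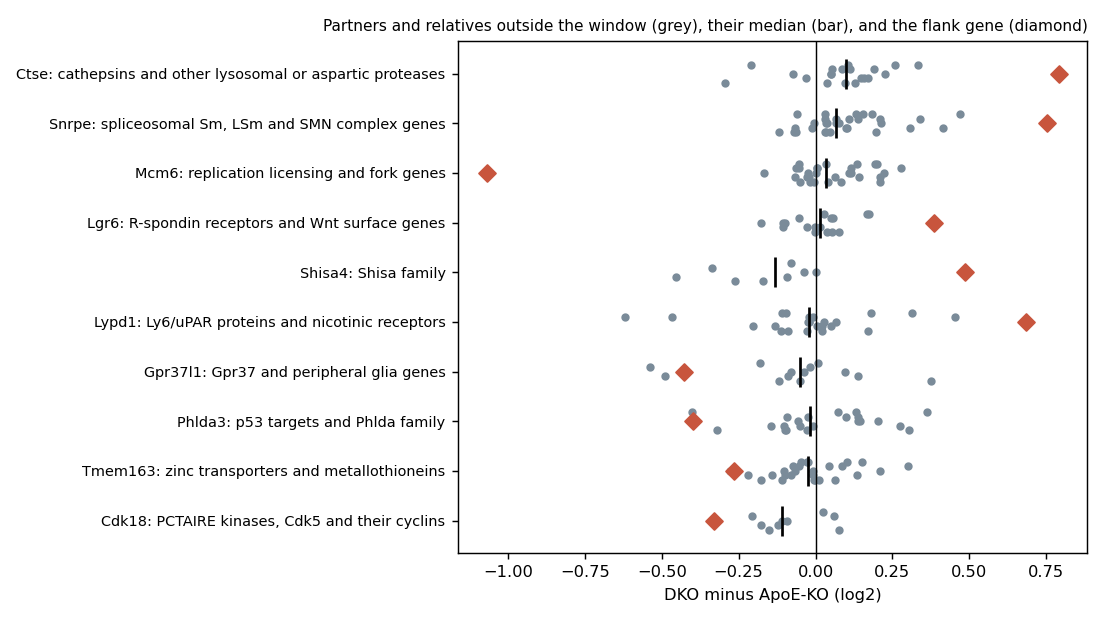
DKO minus ApoE-KO difference (log2) of the measured partners and relatives of each flank gene (grey points, 1 per gene, with the list's median as a bar) beside the flank gene itself (diamond). For 7 of the 10 lists the diamond lies outside the range of the grey points, and for Gpr37l1, Phlda3 and Tmem163 it lies within it. The flank genes were chosen for their differences on these same arrays, so nothing follows from this count.

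Across the 10 genes, same-numbered arrays stayed closer than unmatched ones in 9. Deviations of same-numbered arrays correlated at 0.60, 0.50 and 0.64 over all probe sets, so such closeness was not particular to these genes. The SD of the differences by replicate number was 0.18 times the spread expected of unmatched arrays for Ctse and Lgr6, 0.28 times for Tmem163 and 0.92 times for Cdk18. Mcm6 was the exception at 1.19 times. Leaving out any single array could not change a sign, as the groups did not overlap in any of the 10. It moved only the difference of Mcm6 by more than 1.5 times, as given above.

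**Figure D4:**
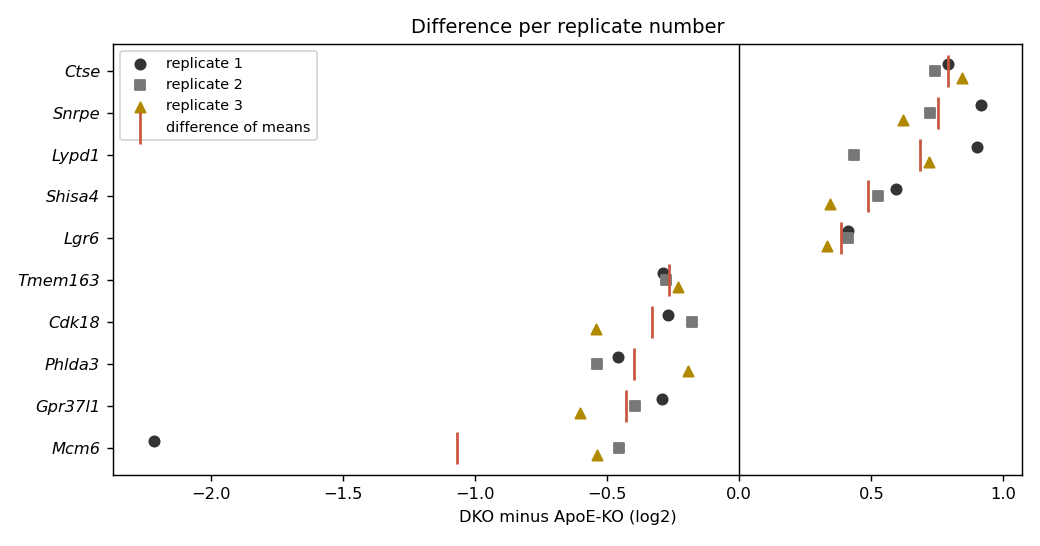
DKO minus ApoE-KO difference (log2) between arrays of the same replicate number for each gene, with the difference of the group means as a vertical bar. All 30 points lie on the side of 0 of their gene's mean, which follows from groups that do not overlap. Mcm6 has the widest spread, from -2.21 to -0.46.

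Along the chromosome, 6 of the 10 genes lie before Adora1 in the order of the RefSeq table and 4 after it. In order they are Lypd1, Tmem163, Mcm6, Ctse, Cdk18 and Snrpe, then Adora1, then Lgr6, Gpr37l1, Shisa4 and Phlda3. No more than 2 neighbours in this order of the 10 lay on the same side of 0. Snrpe is the closest before it in gene count, as the 9th measured gene, and Lgr6 the closest after it, as the 14th. The 21 measured genes between Snrpe and Lgr6 hold none of the 10, because Snrpe and Lgr6 are by definition the closest. They are not all without a difference. Mybph, the measured gene just before Adora1, stood at -0.21 with no overlap between the groups, which was present in 12.0% of the whole array. Myog, just after it, stood at -0.05 with overlapping groups.

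The nearest measured genes on either side of the 10, 20 in all, gave differences from -0.45 to 0.26. In 3 of the 20 the groups did not overlap, all lower in DKO, beside 12.0% of the whole array (6.47% lower). Avpr1b (-0.11), a vasopressin receptor gene, lies before Ctse, and Ube2t (-0.11), a ubiquitin-conjugating enzyme gene, before Lgr6. Tnni1 (-0.21), a troponin gene of slow skeletal muscle, lies after Phlda3. None of the 20 passed at an adjusted p in either limma fit (smallest adjusted p = 0.122 with pairing). Ctse at 0.79 is followed by Rab7b, a small GTPase of late endosomes, at -0.45 with pairs at -0.73, -0.46 and -0.17. Mcm6 at -1.07 lies between Lct, the lactase gene, at -0.13 and Cxcr4, a chemokine receptor gene, at 0.02. Snrpe at 0.75 lies between the transcription factor gene Sox13 at -0.07 and Lax1, an adaptor of lymphocytes, at 0.04.

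**Figure D5:**
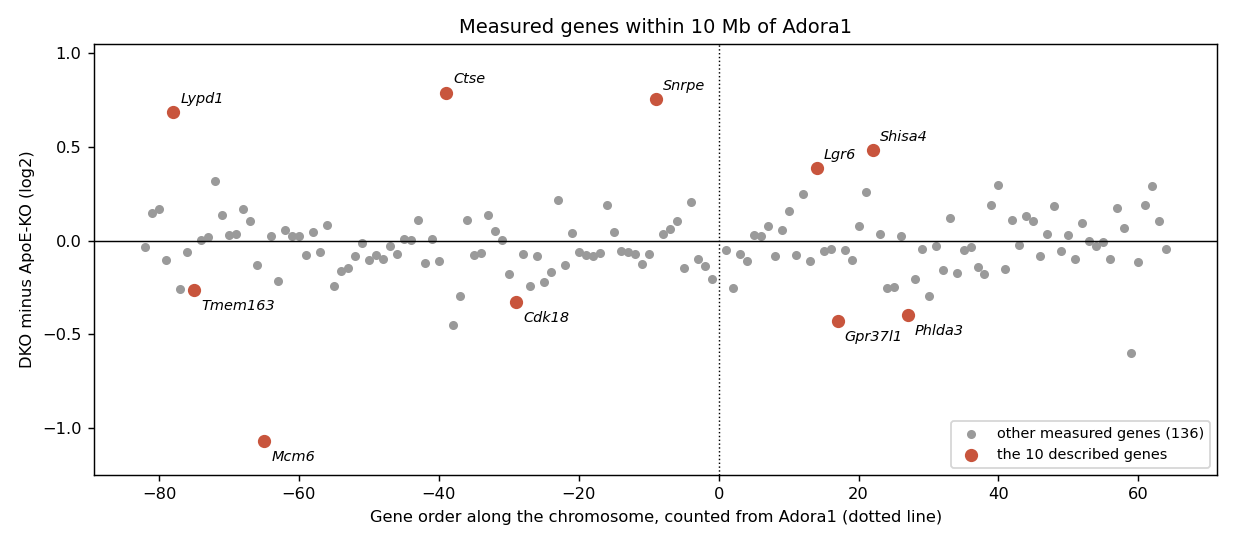
DKO minus ApoE-KO difference (log2) of the 146 measured genes within 10 Mb of Adora1, in gene order along the chromosome with Adora1 at the dotted line. The 10 described genes (large points) are spread over both sides, and the other 136 lie between -0.60 and 0.32.

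Of the 136 other genes in the window, 6 were higher and 12 lower in DKO without overlap. Over the whole array 5.55% of probe sets were higher and 6.47% lower in this way. The largest differences among them were those of B3galt2, a galactosyltransferase gene (-0.60), Rab7b (-0.45) and Map3k19, a kinase gene (0.32), all with overlapping groups, so the 10 genes are not simply those of largest size. Ranked by unadjusted p from limma without pairing, the 10 hold places 1 to 7 and 10 to 12, with Tnni1 and an unnamed predicted gene at the places between. In size the last of them, Tmem163, is 17th of 146. B3galt2 had pairs at -0.60, -0.46 and -0.74 (adjusted p = 0.0517 with pairing, limma). Map3k19 had pairs at 0.87, 0 and 0.08, so its difference rests mostly on the arrays numbered 1. The median difference of the 136 was -0.04 and that of all genes 0.00.

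Some profiles outside the window came close to those of the 10 genes over the 6 arrays, by root-mean-square distance after centring each gene on its mean. For Shisa4 the closest was Maob, a monoamine oxidase gene of the X chromosome, at a distance of 0.02 against a size of 0.27 for Shisa4 itself, followed by Ccdc85a (0.05). For Tmem163 the closest were Fndc11 (0.02) and Morrbid (0.03), for Lgr6 Atp6ap1l (0.03) and Tmem87b (0.04), and for Cdk18 Rasgef1c (0.04) and Sfxn2 (0.05). Gpr37l1 was closest to Gabrq (0.06) and Hoxb6 (0.06), and Phlda3 to Lrrc15 and St6galnac5 (0.07 each). Ctse and Lypd1 came next to Gpm6a (0.11) and Car8 (0.09) after Muc16, and Snrpe was closest to Efhc2 and Sh3rf2 (0.13 each). These likenesses are descriptions over 6 arrays and were picked from nearly all genes measured.

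For Mcm6 the closest profiles were those of Zfp979, a zinc finger gene of chromosome 4, at 0.11, and Ifi205, an interferon-inducible gene of chromosome 1 outside the window, at 0.20, against a size of 0.72 for Mcm6. Zfp979 gave 6.37, 5.81 and 5.91 on the ApoE-KO arrays, against 4.18, 5.57 and 5.26 on the DKO arrays. Ifi205 gave 8.27, 8.67 and 8.33 on the ApoE-KO arrays, against 6.56, 7.99 and 7.85 on the DKO arrays. As with Mcm6, DKO replicate 1 was the lowest array in each and stood apart from the other DKO arrays.

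Genes known to vary among mouse strains were looked at beside these values. Nnt on chromosome 13 encodes the mitochondrial transhydrogenase and carries a deletion in C57BL/6J but not in many other strains. It gave 9.11, 9.33 and 9.20 on the ApoE-KO arrays, against 10.13, 10.02 and 9.75 on the DKO arrays. Every DKO array was higher, and the difference of 0.76 had pairs at 1.02, 0.69 and 0.55 (limma adjusted p = 0.0503 with pairing, above the threshold). Casp4, a caspase gene that is defective in some strains, stood at -0.15, and Ifi202b, an interferon-inducible gene whose level varies among strains, at -0.11 with all arrays between 3.79 and 4.11. In neither did the groups stand apart. The part of strain background in the levels of the 10 genes was not tested.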

How the data were processed

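Aortic RNA of 6 samples was hybridised to Affymetrix whole-transcript arrays after whole-transcript amplification and biotin labelling, per the labels' protocols. The authors deposited log2 values for 25254 probe sets. RMA and Partek, without versions, and the build mm9 stand in the submitters' processing notes. The series text uses the array batch as a second factor, but no label names the batch of an array. Nothing used here states whether a batch effect was removed from the deposited values. The number of arrays limits the precision.

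Gene names came from the platform's annotation, which gives 1 gene for 21496 probe sets, several for 1565 and none for 2193. Each gene was taken by its probe set of highest mean. Order along the chromosome came from RefSeq's GRCm38.p6 gene table. Its build differs from mm9, so the only coordinates given are those of the printed promoters, in GRCm38.p6. The window holds genes whose body reaches within 10 Mb of Adora1, which itself is not analysed here. All probe sets were fitted with limma 3.58.1 in R 4.3.3 (eBayes with an intensity trend), two-sided, Benjamini-Hochberg adjusted at 0.05, without and with the replicate number as a block. The fit was first checked on data with known answers.

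Pairing of same-numbered arrays rests on the values alone, as their deviations from the group means correlated at 0.60, 0.50 and 0.64 over all probe sets. No label says what a number shares, such as an array batch, or that arrays are separate animals, so p-values measure the spread between these samples. The genes and lists were chosen with earlier results of these data known. The text names all 10 genes, up to 3 genes a list by largest difference, the nearest measured neighbours, the 3 largest other window genes and the 2 most alike profiles; predicted genes are not named. The remaining subunits of the MCM ring, single markers and the measured genes next to Adora1 were named beside them after their values were seen. Alternatives were the block, eBayes without trend or robust, a filter at the 40th percentile, quantile normalization, median centring, other windows and thresholds, and arrays left out.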

Additional observations from a re-analysis of the deposited data

How the results depend on the processing

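The differences of the 10 genes kept their direction and stayed within 1 SD of the replicates in all 120 recomputations. These were quantile normalization, median centring, the replicate block, each array left out and each pair of arrays left out. The block leaves a difference as it was, and where groups do not overlap, leaving out arrays cannot change its sign. Leaving out 1 array also cannot move a group mean by 1 SD of that group. Only quantile normalization and median centring could have changed a direction. No second probe set named any of the genes alone, so the choice of probe set could not be varied. With the replicate block, probe sets at an adjusted p under 0.05 went from 0 to 44. At an unadjusted p under 0.05 they went from 1419 to 4092 (5.62% and 16.2% of all). List genes at an unadjusted p went from 15 of 203 to 48. Window genes went from 17 of 146 to 32 (7 and 22 of the other 136, as the 10 were chosen on this contrast). With the block and 1 pair left out, fits added after the data were seen, these were 415, 0 and 48 (leaving out pair 1, 2 or 3), 4257, 2325 and 3245, 54, 26 and 32, and 35, 24 and 28, while 6, 0 and 1 list genes passed at an adjusted p. Without the block, leaving out 1 array gave 0 to 8 probe sets (8 without DKO replicate 3), 954 to 2229 at an unadjusted p (2229 without ApoE-KO replicate 1), and 10 to 28 list genes (28 without ApoE-KO replicate 1). The filter on low values left 881 at an unadjusted p among fewer probe sets tested. A threshold of 0.01 left 6 window genes, all of them among the 10. Probe sets without overlap numbered 3035, and 4773 to 7319 with 1 array fewer, which follows from comparing fewer arrays. The causes of the other shifts were not tested. eBayes without trend and robust eBayes kept the counts of probe sets at an adjusted and an unadjusted p and of list genes within 1.5 times, and windows of 5 and 20 Mb did so for the count of window genes.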
